A study of Mus musculus with 8 samples.

Results

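NIH3T3 cells that received cordycepin and serum were compared with cells that received serum alone. NIH3T3 is an immortalised mouse fibroblast line, and cordycepin is 3′-deoxyadenosine. The members were 6 of the 8 arrays of the series, chosen by their labels. They were 3 arrays of cells with 20 µM cordycepin and serum, and 3 arrays of cells with serum and no cordycepin. Both groups had 0.1% DMSO, the vehicle of the drug. In both groups the cells had spent 24 h in 0.5% newborn bovine serum before drug or vehicle was added. The labels place serum 60 min after the drug and name the cordycepin samples by 90 min, which leaves 30 min of serum. The legend in the paper instead places serum after the full 90 min of drug, so the exposure before serum is not settled by these sources. The other 2 arrays, of starved cells without serum, did not enter the differences themselves. They entered the estimate of the spread, the filter on background and the choice of the brightest probe of a gene. No array held cells with cordycepin and no serum, so every difference refers to serum-stimulated cells of a single line. The labels do not say whether the 3 arrays of a group came from separate cultures, so the p-values measure the spread between these arrays, which may be technical.

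Serum restarts signalling through growth factor receptors, Ras and the ERK kinases in arrested fibroblasts. Within minutes it switches on immediate early genes, whose mRNAs are short-lived and encode transcription factors, feedback inhibitors and secreted ligands. Cordycepin is phosphorylated in cells and, because it lacks the 3′ hydroxyl group, can end an RNA chain into which it is built. It is known as an inhibitor of polyadenylation, the step that completes the 3′ end of most mRNAs.

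The level of a probe is its log2 signal after subtraction of that array's 75th percentile. A level of 0 is a bright probe and negative levels are dimmer. That percentile was 350.5 to 626 over the 6 arrays, and 51.1% to 55.96% of the probes of an array were well above background, which means brighter than background by the test of the extraction software. Arrays correlated at 0.9925 to 0.9955 within the groups and at 0.9655 to 0.9759 between them. Of 13 fibroblast markers, 12 were well above background on all 6 arrays and none was called different. Fap was above background on none. The summed signal of that list was 3108 to 3785 with cordycepin and 2856 to 3193 without. Of the markers of other cell types 4 were called higher: the macrophage marker Cd68, the B cell marker Cd79a, the adipocyte marker Adipoq and the muscle marker Myh3. The probe of Cd79a is placed on another chromosome than the gene and its second probe (difference 0.84) was not called. Adipoq and Myh3 were above background on 0 serum arrays, so they entered the test through the cordycepin arrays, and were at least 2.61- and 2.81-fold higher. Cd68 stood at 3.05, 3.08 and 2.68 with cordycepin and at -0.04, -0.39 and 0.13 without, while the other 6 macrophage markers were not called. The summed signal was 2.45 to 2.87 against 2.05 to 2.61 for lymphocyte markers (4 of 7 on no array above background, among them Cd3g, Cd8a and Ms4a1) and 0.396 to 0.541 against 0.313 to 0.372 for adipocyte markers (3 of 6, Cidec, Lep and Plin1). For muscle markers it was 5.51 to 6.62 against 6.97 to 9.43 (2 of 6, Ckm and Myog). For neuron markers it was 15.9 to 21.4 against 12 to 13, without overlap and with 0 called, and 4 of 5 (Map2, Snap25, Syp and Tubb3) were above background on all 6 arrays. For endothelial markers it was 5.58 to 6.34 against 4.98 to 7.02, with 4 of 6 above background on all 6 arrays and 0 called, and for epithelial markers 0.203 to 0.229 against 0.169 to 0.177, with 5 of 7 on no array. The summed macrophage signal was 27.5 to 34.9 with cordycepin and 15.5 to 17.7 without, and the part of these genes in the results below was not tested.

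In total 15159 genes were tested, each on its brightest probe, and 719 were called higher and 406 lower with cordycepin. A call required an adjusted p under 0.05 in limma and a difference of at least 1 on the log2 scale, which is a doubling or halving. The background rate was thus 4.74% of genes for rises and 2.68% for drops. Over probes, 7.63% of 30863 were called higher and 2.87% lower. Rises made up 63.9% of the gene calls. They made up 53% after quantile normalisation, 52.9% after normexp background correction and 41.1% when arrays were centred on the median of all probes, so which direction prevailed among genes depended on the scaling. The median difference of the tested probes was 0.099 here and -0.201 under that last scaling.

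**Figure D1:**
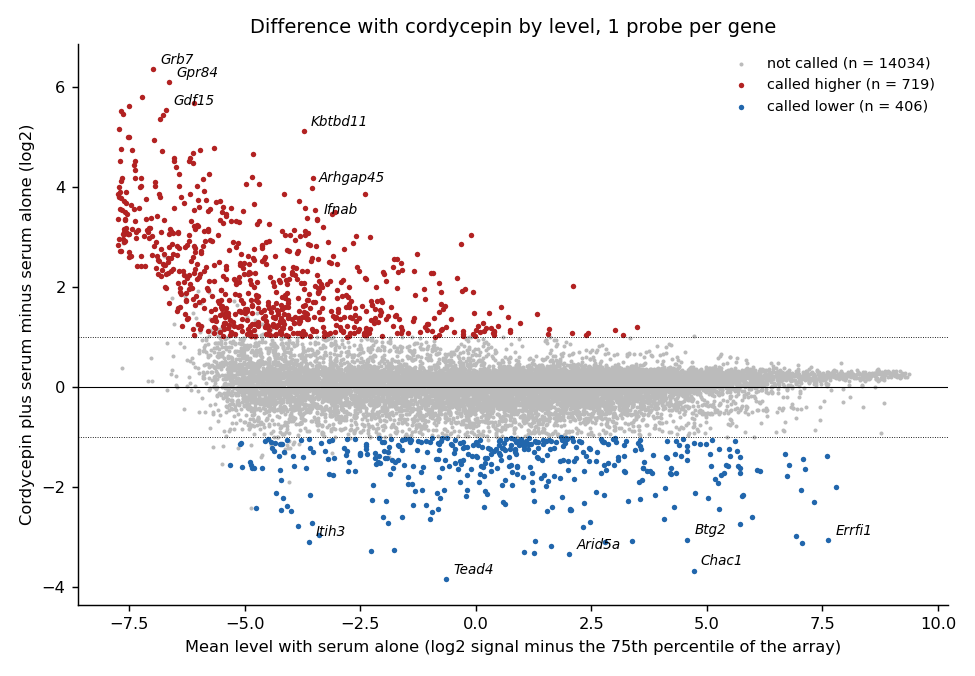
Each point is 1 of 15159 genes, with its mean level on the 3 serum arrays on the x axis and the log2 difference between cordycepin plus serum and serum alone on the y axis; dotted lines mark a difference of 1 in either direction. Rises (red, 719) lie towards dim levels at the left and drops (blue, 406) spread over the whole range of levels.

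Among the 13963 genes well above background on all 6 arrays, rises and drops were nearly equal in number, at 368 and 360. Large changes were more often rises: 112 genes rose and 61 fell at least 4-fold, and 27 rose and 12 fell at least 8-fold. A rise of 16-fold or more was seen for 3 genes and a drop of that size for 0. A further 202 genes were measurable with cordycepin and on no serum array, and 190 of these were called higher. The reverse held for 29 genes, of which 21 were called lower. Of the groups compared, only the brighter one passed these genes through the filter, so a difference was built into them.

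Tead4, a DNA-binding partner of the coactivators YAP and TAZ, showed the largest drop among genes measured in both groups. Its level on chromosome 6 (128177161 to 128177220, build mm9) was -4.55, -5.24 and -3.66 with cordycepin and -0.49, -0.63 and -0.79 with serum alone. The groups were far apart, and Tead4 was 14.4-fold lower with a log2 difference of -3.84 ± 0.35 (SE, limma adjusted p 0.000151). Chac1 encodes an enzyme that degrades glutathione and is a target of the integrated stress response. Its levels (chromosome 2, 119179990 to 119180049) were 0.30, 1.23 and 1.6 with cordycepin and 4.94, 4.32 and 4.88 without, a 12.7-fold drop (adjusted p 0.00014). Arid5a, an RNA-binding protein that stabilises inflammatory mRNAs, varied least: -1.34, -1.35 and -1.27 with cordycepin against 2.00, 2.11 and 1.95 without (chromosome 1, 36377312 to 36377371). It was 10.1-fold lower with an SE of 0.10 on the log2 scale (adjusted p 6.24e-06).

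Among the other large drops were Dusp5, Zbtb9, Csrnp1, Fosl1, Errfi1 and Btg2, at 8.28- to 9.89-fold. Errfi1 encodes a feedback inhibitor of the EGF receptor and stood at 4.95, 4.47 and 4.28 against 7.60, 7.88 and 7.42. The groups did not overlap. Zbtb9, a zinc finger protein, was as bright in starved cells (1.10 and 1.17) as with serum alone (1.00, 1.04 and 1.09), and stood at -2.71, -2.04 and -2.0 with cordycepin (adjusted p 2.21e-05). Dusp5 was at -1.66 and -1.71 in starved cells, 1.04, 1.49 and 1.25 with serum alone and -2.04, -2.40 and -1.71 with cordycepin. These genes thus included some that serum alone left at the starved level and some far above it.

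**Figure D2:**
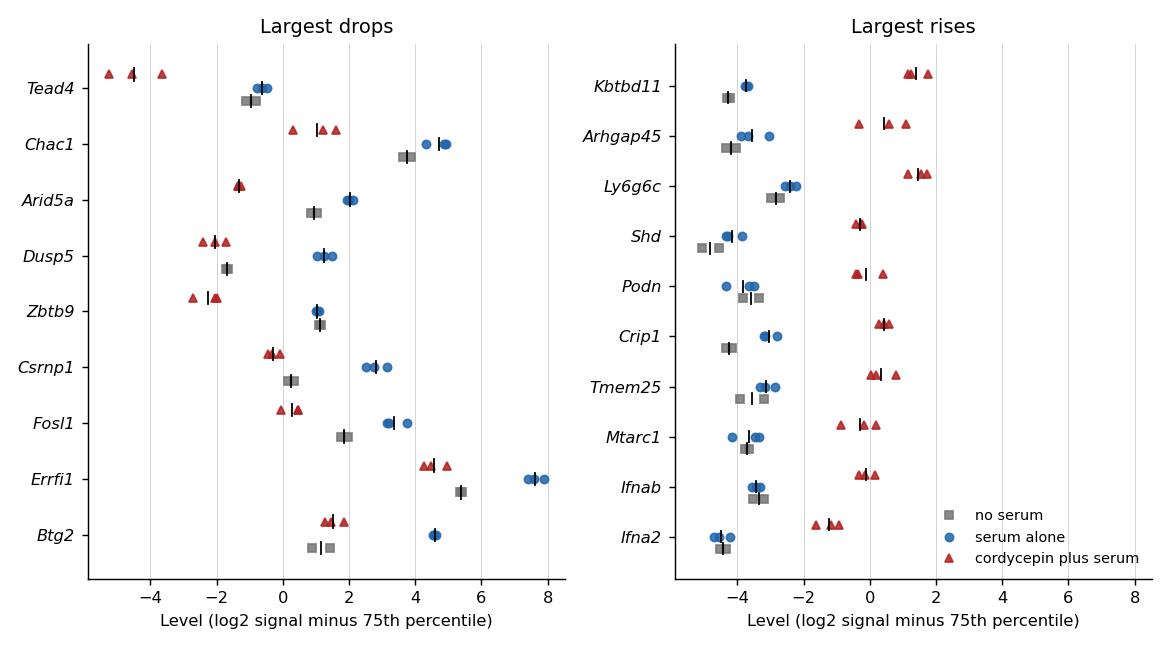
Level of each gene (log2 signal minus the 75th percentile of the array, x axis) on every array: 3 with cordycepin plus serum (triangles), 3 with serum alone (circles) and 2 without serum (squares); black ticks are group means. For all genes shown the cordycepin arrays lie apart from the serum arrays, which follows in part from the rule that chose them.

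Kbtbd11, which encodes a Kelch and BTB domain protein, showed the largest rise among genes measured in both groups. Its levels (chromosome 8, 15027026 to 15027085) were 1.75, 1.25 and 1.14 with cordycepin and -3.67, -3.78 and -3.73 with serum alone. It was 34.5-fold higher, a log2 difference of 5.11 ± 0.16 (adjusted p 6.24e-06), and its second probe rose by 4.19. Arhgap45, a GTPase-activating protein of blood cells, was at 1.09, 0.57 and -0.34 against -3.06, -3.68 and -3.90, a 15.8-fold rise (adjusted p 0.000157). Ly6g6c, a small surface protein of the Ly6 family, was at 1.72, 1.53 and 1.14 against -2.22, -2.42 and -2.56, a 14.6-fold rise (adjusted p 9.77e-06). All 3 were dim in starved cells as well, at or below their level with serum alone. The other 7 were the adaptor Shd, the matrix proteoglycan Podn, the LIM domain protein Crip1, Tmem25, the mitochondrial reductase Mtarc1, and the interferon genes Ifnab and Ifna2, at 9.57- to 14.5-fold.

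Where serum alone left no measurable signal, the rise is a lower bound. Gpr84, a receptor for medium-chain fatty acids, was at -0.29, -0.18 and -1.21 with cordycepin and at -6.85, -6.28 and -6.82 without, where none of the 3 arrays was well above background. It was at least 31.9-fold higher (fitted adjusted p 2.21e-05). The bounds of Ptcra, the pre-T cell receptor alpha chain, the signalling adaptor Grb7, the stress-induced cytokine Gdf15 and the intermediate filament peripherin (Prph) were at least 31.6-, 29.9-, 20.8- and 19.9-fold. For a bound, the dim group is set, array by array, at its measured signal or at the dimmest signal that any probe well above background had there, whichever is greater. Drops to below background have bounds of 3.40-fold for the ERK inhibitor Spry4, 3.23-fold for the hyaluronan-binding inter-alpha-trypsin inhibitor Itih3, 2.47-fold for Tigd5, 2.33-fold for Zfp334 and 2.21-fold for Inka2. These bounds are limited by the dim levels with serum alone, between -3.54 and -4.17 on average, and give no size of the drops. After normexp background correction none of these 5 drops was called, and all 5 rises were.

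Genes were next grouped by 46 lists of pathways and families. The immediate early transcription factors had the lowest median difference of all lists, at -1.61 beside 0.08 for all genes. Of 31 genes tested 23 were called lower and 0 higher, against 2.68% of all genes called lower. With centring on the spike-in probes 18 were called lower, and with centring on the median of all probes 27. Fosl1, the AP-1 component Fra-1, was at 0.46, -0.04 and 0.46 with cordycepin and 3.22, 3.74 and 3.14 without, and was 8.42-fold lower (adjusted p 4.13e-05). Csrnp1, a nuclear protein with a cysteine- and serine-rich domain, was 8.49-fold lower and the zinc finger factor Egr3 was 6.07-fold lower (adjusted p 2.22e-05 and 0.000228). Of the Kruppel-like factors, zinc finger proteins that bind GC-rich DNA, 6 of 13 (46.2%) were called lower. A further 1 was called higher, under none of the other scalings. Klf10 was 4.72-fold, Klf6 3.42-fold and Klf2 3.30-fold lower, and these 3 also stand in the first list.

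Among the feedback inhibitors of MAPK signalling 9 of 17 (52.9%) were called lower, against 2.68% of all genes, and 0 higher, with a median of -1.10. The count of drops was 6 with centring on the spike-in probes, 7 after normexp correction and 11 with centring on the median of all probes. Of the 16 measured on all 6 arrays 8 were called lower. Dusp2, a nuclear phosphatase of ERK, was at -3.63, -3.37 and -3.34 with cordycepin and -1.22, -0.55 and -1.10 without, a 5.62-fold drop (adjusted p 8.19e-05). Dusp5, a second nuclear ERK phosphatase, was 9.89-fold and Errfi1 8.36-fold lower. The kinases and adaptors above them were not called: 0 of 24 genes of the Ras and ERK cascade and 0 of 18 growth factor receptors. With centring on the median of all probes 1 of the cascade and 2 of the receptors were called lower. At an unadjusted p under 0.05, limma had 2 higher and 3 lower in the cascade and 0 higher and 3 lower among the receptors. Fgfr1, a receptor for fibroblast growth factors, was at 7.0, 6.65 and 6.47 with cordycepin and 6.62, 6.77 and 6.41 without (difference 0.11 ± 0.19, adjusted p 0.744). Axl, the receptor for Gas6, differed by 0.07 ± 0.13 (adjusted p 0.737).

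The PI3K, AKT and mTOR list had 1 of 28 called lower (3.57%, beside 2.68% of all genes), the catalytic subunit Pik3cb. With centring on the median of all probes 5 were called lower. Pik3cb was 2.97-fold lower (-1.80, -1.42 and -1.19 against 0.21, 0.10 and -0.03, adjusted p 0.000367). At an unadjusted p under 0.05, limma had 0 higher and 9 lower in this list. Fitted differences were below 0 for 18 of the 28, with a median of -0.10. None of the 10 AMPK subunits and kinases was called, with 2 higher and 1 lower at an unadjusted p under 0.05. The upstream kinase Camkk2 differed by 0.19 ± 0.20 and the scaffold Cab39 by -0.02 ± 0.16 (adjusted p 0.548 and 0.947). Of the genes for adenosine uptake, metabolism and receptors, the A2b receptor Adora2b was 3.21-fold lower and the A2a receptor Adora2a was called higher, 2 of 20 tested. That is 5% in each direction, beside 4.74% of all genes called higher and 2.68% lower. Adora2a was not above background on all 6 arrays, so no size of its rise is given. Among the 19 genes measured on all 6 arrays, 0 were called higher and 1 lower. Adora2b was at 0.64, 0.79 and 0.55 with cordycepin and 2.36, 2.44 and 2.24 without, and its second probe fell by 1.88.

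Of 22 secreted ligands 9 (40.9%) fell, against 2.68% of all genes, and Gdf15 rose. With centring on the spike-in probes 5 of the 22 were called lower. Ccn2, a matricellular protein and target of YAP, was at 4.26, 4.52 and 3.08 with cordycepin and 7.22, 7.16 and 6.42 without, so it was 7.88-fold lower with a wide spread (SE 0.44, adjusted p 0.00204). The vasoconstrictor endothelin (Edn1) was 6.24-fold lower and the EGF receptor ligand epiregulin (Ereg) 4.46-fold lower. Among TEAD factors and targets of YAP and TAZ, 3 of 17 (17.6%) were called lower. They were Tead4, the kinase Nuak2 and the nuclear ankyrin repeat protein Ankrd1. This list does not hold Ccn2, which is counted with the ligands. Its median was -0.62, with 14 of 17 below 0, and with centring on the median of all probes 8 were called lower. In the TGF-beta, BMP and Wnt feedback list 3 of 24 (12.5%) were called lower, among them the inhibitory Smad7 and the corepressor Tgif1. Smad7 was 3.01-fold and Tgif1 2.36-fold lower.

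Proteins that destabilise mRNA were among the drops. Of 15 regulators of mRNA decay 4 (26.7%) were called lower, against 2.68% of all genes, with a list median of -0.18. Btg2, which links the deadenylase complex to its targets, was at 1.29, 1.46 and 1.84 with cordycepin and 4.64, 4.54 and 4.58 without, an 8.28-fold drop. Zfp36 (tristetraprolin), which binds AU-rich elements, was 4.15-fold lower, and Zc3h12a (regnase-1), an endonuclease, was 3.01-fold lower. The enzymes that carry out decay were not called, at 0 of 33 genes for deadenylation and mRNA turnover, although 1 was higher and 6 lower at an unadjusted p under 0.05. Of the polyadenylation machinery 1 of 23 (4.35%) was called, the poly(A) polymerase Papolg.

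Other lists held a few drops each, to be set beside the 2.68% of all genes called lower. Among 17 targets of p53 the called members were 4 drops (23.5%). They included the polo-like kinases Plk3 (4.36-fold) and Plk2 (3.08-fold) and the stress protein Gadd45g (3.1-fold). The median of that list was -0.17, with 6 of 17 above 0. Of 18 NF-kB genes 3 (16.7%) were called lower. Ptgs2 (cyclooxygenase-2) was 6.62-fold lower, the chemokine Ccl7 2.58-fold and the ubiquitin-editing enzyme Tnfaip3 2.03-fold. Ptgs2 was at 2.81, 3.33 and 2.84 with cordycepin and 5.89, 5.69 and 5.58 without. Per1, a repressor in the circadian clock, was the only called gene of 18 clock genes (5.56%) and was 2.93-fold lower (adjusted p 0.00016). With centring on the median of all probes 4 clock genes were called. Chac1 and the leucine zipper factor Cebpb were the 2 called of 19 genes of the integrated stress response (10.5%). Single drops were seen for the integrin subunit Itga5 (3.14-fold) and the chaperone cofactor Dnajb4 (2.27-fold), which are 4.17% and 5.88% of their lists. The urokinase receptor Plaur and urokinase itself (Plau) were 3.30- and 2.10-fold lower, 2 of 16 matrix proteases and inhibitors (12.5%). With centring on the spike-in probes Cebpb, Dnajb4, Ccl7, Tnfaip3 and Plau were not called. Some of these lay near the minimum fold and lost their call when 1 array was left out. The difference of Tnfaip3 was then -0.89 and just short of -1.0, and for Plau -0.98 and -0.95, without cordycepin replicate 3 and serum replicate 2.

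Of the numbered zinc finger genes, mostly repressors with a KRAB domain, 38 of 326 (11.7%) were called lower, against 2.68% of all genes, and 7 (2.15%) higher, against 4.74%. The count of drops was 19 with centring on the spike-in probes, 21 after normexp correction, 45 after quantile normalisation and 65 with centring on the median of all probes. Zfp458 was at -4.56, -4.80 and -4.49 with cordycepin and -1.89, -2.02 and -1.77 with serum alone, and at -1.93 and -2.01 in starved cells. It was 6.58-fold lower (adjusted p 9.77e-06), and Zfp398 and Zfp319 were 5.10- and 4.31-fold lower. The other direction was taken by Zfp811, at -1.71, -1.77 and -1.70 against -3.73, -3.96 and -3.93, a 4.43-fold rise (adjusted p 1.64e-05). These genes share similar zinc finger repeats, so signal from relatives on a probe cannot be told apart.

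**Figure D3:**
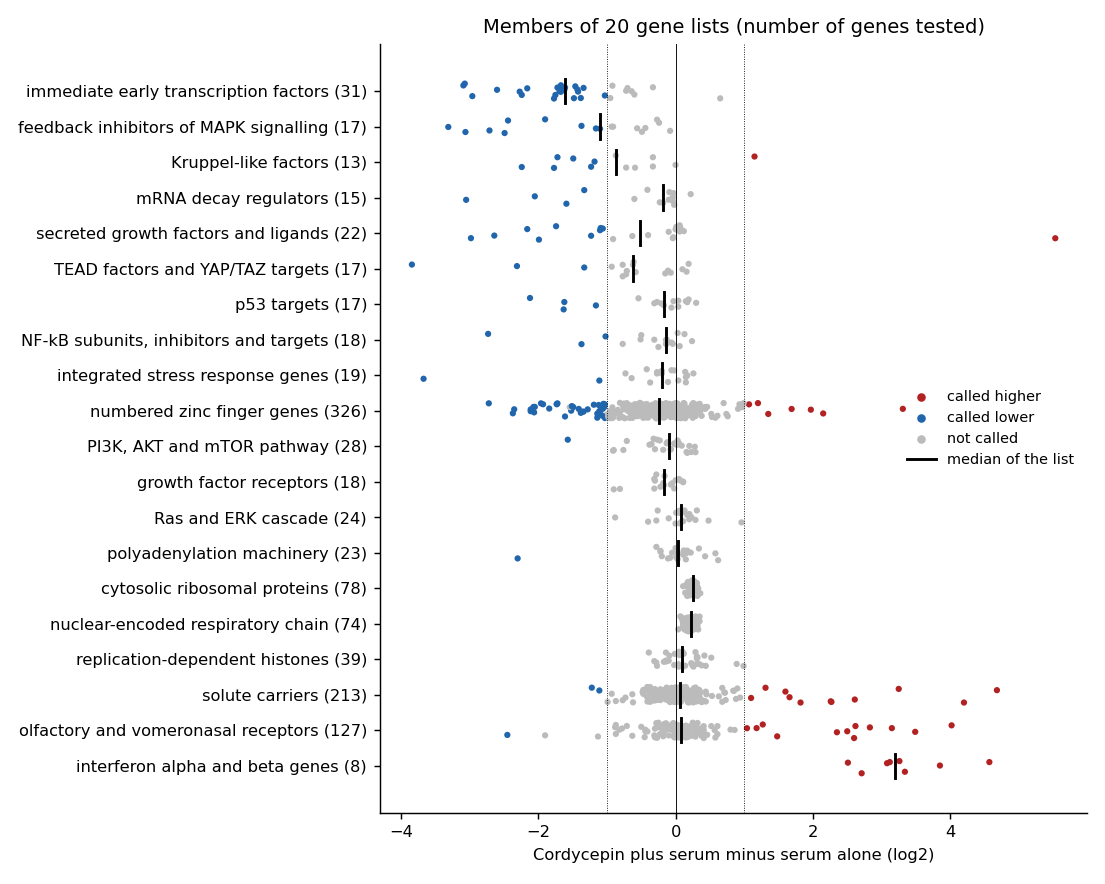
Log2 difference (cordycepin plus serum minus serum alone, x axis) of every tested member of 20 gene lists, with the number tested in brackets; red and blue points were called, grey points were not, and black bars are list medians. The median of the immediate early transcription factors is at -1.61 and that of the interferon genes at 3.19, while the ribosomal and respiratory chain genes form narrow groups near 0.25 and 0.23.

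Abundant mRNAs of constitutive genes formed narrow groups with small differences. All 78 ribosomal protein genes had fitted differences between 0.11 and 0.36 with a median of 0.25, and 0 were called. At an unadjusted p under 0.05, limma had 9 higher and 0 lower. Their sign rested on the scaling, as 68 of the 78 were below 0 when arrays were centred on the median of all probes. The 74 respiratory chain genes (median 0.23, 0 called, 25 higher and 0 lower at an unadjusted p under 0.05) and 16 translation factors with TOP mRNAs (median 0.22, 0 called, 3 and 0) behaved alike and also turned under that scaling. Rps10, a protein of the small ribosomal subunit, was at 9.94, 9.44 and 9.53 with cordycepin and 9.35, 9.51 and 9.26 without, and the groups overlapped. Of 39 replication-dependent histone genes 0 were called, with 5 higher and 1 lower at an unadjusted p under 0.05, and near-identical copies may share probes. The same count was 0 of 16 splicing factors of the SR family (2 higher and 6 lower at that p) and 0 of 24 actin cytoskeleton genes (1 and 7).

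Of 14 reference genes 1 was called, the TATA-binding protein Tbp, at 0.08, 0.62 and 0.59 with cordycepin and 1.55, 1.67 and 1.31 without. It was 2.12-fold lower (adjusted p 0.00512), while its second probe fell by 0.71, which is short of a call. Without cordycepin replicate 1 Tbp differed by -0.91 and was not called. Gapdh (difference 0.16 ± 0.10), Actb (0.20 ± 0.16), Ppia (0.18 ± 0.15), Hprt (0.19 ± 0.13), B2m (0.19 ± 0.11), Sdha (0.18 ± 0.10) and Gusb (0.19 ± 0.11) were not called. Neither were Pgk1 (0.19 ± 0.10), Rpl10a (0.22 ± 0.13), Ywhaz (-0.15 ± 0.15) and Tfrc (0.01 ± 0.15). The probes of Gapdh, Ppia and Ywhaz are placed on another chromosome than the gene, so copies elsewhere in the genome may contribute to them.

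Rises over a whole list were seen for the interferon genes. Of 12 interferon alpha and beta genes on the array 8 were tested, and all 8 were called higher, against 4.74% of all genes. The 6 measured in both groups differed by 2.51 to 3.34, and Ifna13 and Ifna16, above background on 0 serum arrays, were at least 15.3- and 3.16-fold higher. Ifna5 was at -0.29, -0.52 and -0.91 with cordycepin and -3.72, -3.60 and -3.78 without, 8.72-fold higher. One probe of Ifnab rose by 3.34, and the adjacent probe, above background on no serum array, was at least 40.3-fold higher. These genes are near-identical in sequence and lie side by side on chromosome 4, so their probes are not independent. Of 25 genes that interferon induces 2 (8%) were called, both higher, and 1 of these was the RNA sensor Dhx58, at 4.97-fold. The Toll-like receptor Tlr13 was 3.05-fold higher, 1 of 15 in its list (6.67%), and cyclin B2 (Ccnb2) was 2.27-fold higher, 1 of 32 cell cycle genes (3.12%). The last 2 shares are near the 4.74% of all genes, and Ccnb2 was not called under either other centring.

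Single rises were found in 2 large families. Of 1338 olfactory and vomeronasal receptors on the array 127 were tested. Of these, 12 (9.45%) were called higher and 1 (0.787%) lower, against 4.74% and 2.68% of all genes. Of those 12, 10 were not above background on all serum arrays and entered the test through the cordycepin arrays, so a rise was built in. Of the 76 measured on all 6 arrays 2 were called, and these, Vmn1r192 (2.41-fold) and Olfr1443 (2.26-fold) were both higher. Calls over the family were 3 higher and 0 lower after normexp correction, 10 and 7 after quantile normalisation, 8 and 2 with centring on the spike-in probes and 8 and 7 with centring on the median of all probes. Of 213 solute carriers 11 (5.16%) were called higher and 2 (0.939%) lower, the former near the share of all genes. The bile acid-CoA ligase Slc27a5 was at -0.97, -1.59 and -1.88 with cordycepin and -4.53, -4.81 and -4.85 without, a 9.52-fold rise. The organic anion transporter Slc22a13 was 6.12-fold and the acyl-CoA synthetase Slc27a3 3.17-fold higher, while the lysosomal transporter Slc66a1 was 2.15-fold lower. Slc66a1 differed by -0.95 without cordycepin replicate 1 and was then not called. Vmn1r192 and Olfr1443 were not called after normexp correction or with centring on the spike-in probes or on the median of all probes.

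Position in the genome was examined next, and this was chosen after the values were seen. For 12606 protein-coding genes whose probe lies on the chromosome of the gene, the distance was taken to the nearest probe of another protein-coding gene upstream on the same strand. The median distance was 23687 bases for 474 genes called higher, 77641 bases for 336 called lower and 83395 bases for all. Of the 283 genes with such a neighbour within 5 kb, 14.8% were called higher. The share was 12% at 5 to 10 kb, 8.94% at 10 to 20 kb, 5.78% at 20 to 50 kb, 2.03% at 50 to 100 kb and 1.15% of 5663 genes beyond 100 kb. The share called lower stayed between 2.12% and 2.97% over the same distances.

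**Figure D4:**
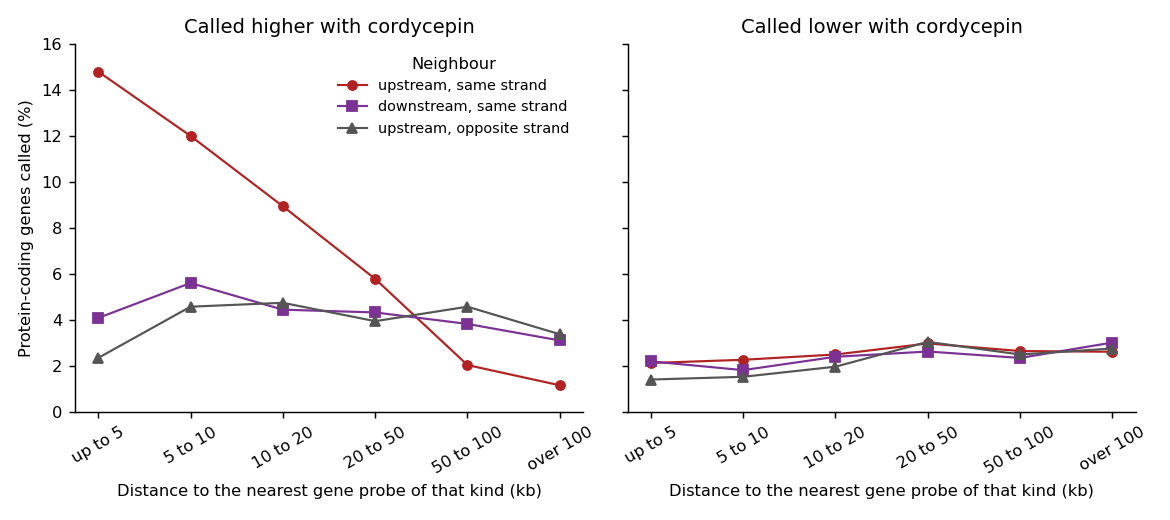
Share of protein-coding genes called higher (left) and called lower (right) with cordycepin, in percent, by the distance in kb to the nearest probe of another protein-coding gene that lies upstream on the same strand (circles), downstream on the same strand (squares) or upstream on the opposite strand (triangles). The share called higher runs from 14.8% to 1.15% for upstream neighbours on the same strand and stays between 2.34% and 5.60% for the others.

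Neighbours in other arrangements showed little of this. With the nearest downstream gene of the same strand within 5 kb, 4.08% were called higher, and beyond 100 kb 3.1%. With the nearest upstream gene of the opposite strand these shares were 2.34% and 3.37%. Where the upstream neighbour on the same strand lay within 20 kb and was itself well above background on all serum arrays, 11.8% of 1562 genes were called higher. Where it was not, the share was 6.01% of 416. Genes below the median level showed 19.4% within 20 kb (205 of 1054) and 2.24% beyond 100 kb (63 of 2811). Genes above it showed 0.541% (5 of 924) and 0.0701% (2 of 2852), so few of these rises were among the brighter genes. Genes are not independent of one another and close neighbours can share sequence or an annotation, so no test is given.

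The share within 20 kb exceeded that beyond 100 kb with each of the scalings, filters, blocks and left-out arrays tried. Within 20 kb the share called higher was 10.6%, and it ranged from 5.46% with normexp background correction to 11% without serum replicate 1. Beyond 100 kb it ranged from 0.353% to 1.22%. With the filter that asks for signal above background on all 6 arrays, the shares were 6.42% and 0.835%.

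All of the 10 largest rises had an upstream neighbour on the same strand within 50 kb, and 6 within 20 kb. Of all protein-coding genes 36.5% did, and of the 10 largest drops 5. The probe of Ly6g6c lay 8057 bases downstream of one for Ddah2, whose level was 6.36 with serum alone and which differed by 0.16 (adjusted p 0.389). That of Podn lay 29705 bases from Scp2 (level 5.61, difference 0.10), that of Mtarc1 26427 bases from its paralogue Mtarc2 (level 5.19, difference 0.26) and that of Arhgap45 15917 bases from Abca7 (level 3.33, difference 0.17). These 4 neighbours were bright and were not called. Nor were Arhgef10 beside Kbtbd11 (26869 bases, difference -0.31), Yju2 beside Shd (9823 bases, -0.72) and Klhl9 beside Ifnab (27657 bases, 0.03). Crip1 followed Crip2 at 8374 bases, and Crip2 itself differed by 0.93, which is short of the minimum fold. Tmem25 had Ttc36, which was dim and itself called higher, by at least 2.87-fold, as its nearest neighbour, and Ifna2 had Ifnab, which also rose. Gpr84, Grb7 and Prph lay 6334, 18513 and 20565 bases downstream of Zfp385a, Erbb2 and Tuba1c. The marker Cd68 lay 8845 bases downstream of Senp3 and Adipoq 43637 bases downstream of Eif4a2.

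Genes called in either direction spanned less of the genome than the rest. The span from first to last base, from RefSeq on GRCm38.p6, had a median of 9.64 kb for 505 protein-coding genes called higher and 12.6 kb for 339 called lower, beside 21.4 kb for all 13559. Of genes up to 5 kb, 8.02% were called higher and 4.32% lower. Of genes over 100 kb, 0.687% were called higher and 1.31% lower. Among genes measured on all 6 arrays the medians were 9.55, 12.7 and 22 kb. Short genes also lie closer to their neighbours, and the part of each property was not separated.

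**Figure D5:**
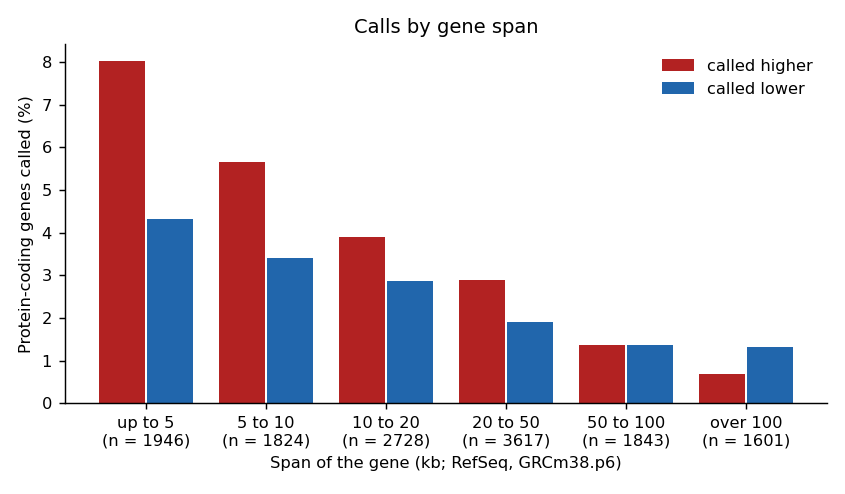
Share of protein-coding genes called higher (red) and lower (blue) with cordycepin, in percent, by the span of the gene in kb; n is the number of genes tested in each class. Both shares are highest for genes up to 5 kb (8.02% and 4.32%) and lowest for genes over 100 kb (0.687% and 1.31%).

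Some genes gave a different answer at different probes. Of 4174 genes with several tested probes, 391 had a call, and all probes were called higher in 39 of these and lower in 33. Another 180 had some probes higher and none lower, 134 some lower and none higher, and 5 had calls in both directions. In all 5 the probe called lower lay upstream, in the direction of the gene, of the probe called higher. They were Papolg, Zfp867, Ap4e1, 2810021J22Rik and A130050O07Rik, chosen after their values were seen. In Papolg the probe at 23762935 to 23762994 on chromosome 11 was at -1.93, -1.88 and -1.36 with cordycepin and 0.50, 0.54 and 0.68 without, so it was lower. The probe at 23760198 to 23760257, which lies further downstream as the gene is on the minus strand, was at -0.86, -0.90 and -0.83 against -2.08, -2.15 and -2.07, so it was higher by 1.24 (adjusted p 0.000108). Zfp867 showed the same order, where the upstream probe fell by 1.34 and the downstream probe was higher by 2.20. In Zfp319 the upstream probe fell by 2.11 and the downstream probe differed by 0.87, which is short of a call. Mcl1, an inhibitor of apoptosis, fell at both probes, by 3.74 at the upstream one (-0.38, -0.07 and -0.17 against 3.61, 3.49 and 3.49) and by 1.07 at the brighter downstream one, which was not called without cordycepin replicate 3 (-0.93) or serum replicate 1 (-0.95). In Ap4e1 and A130050O07Rik the probe called lower was well above background on none of the cordycepin arrays, so its difference has no measured lower end.

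Among genes that RefSeq classes as long non-coding RNAs 93 of 677 (13.7%) were called higher and 15 (2.22%) lower, against 4.74% and 2.68% of all genes. The share called lower was thus near that of all genes. How many of the 93 were above background on all 6 arrays was not counted, and the part of the filter in these rises was not tested. Of 17 such genes in the list of well-known ones, 2 fell and 1 rose. Malat1, an abundant nuclear RNA, was at -0.58, -0.69 and 0.07 with cordycepin and 1.90, 1.67 and 2.53 without, so it was 5.39-fold lower (adjusted p 0.000691). Mir17hg, the host of the miR-17 to miR-92 cluster, was 4.39-fold lower, and the snoRNA host Snhg3 2.12-fold higher. Snhg3 lost its call, at 0.99, without cordycepin replicate 2 or serum replicate 3. Further probes target intergenic transcripts, lincRNAs, named by their position on mm9. The probes below mark the 3 loci with the largest drops and the 3 with the largest rises among those measured on all 6 arrays, chosen after the values were seen, 1 probe of 60 bases per locus as the files give it, with no part in capitals. The first is NEAT2, another name of Malat1.
NEAT2: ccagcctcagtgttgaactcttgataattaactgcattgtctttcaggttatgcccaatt
chr2:158169020-158191295_R: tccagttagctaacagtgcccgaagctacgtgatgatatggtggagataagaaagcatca
chr12:110944403-110988678_F: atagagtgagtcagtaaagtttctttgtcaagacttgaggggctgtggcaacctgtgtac
chr1:194659312-194661407_R: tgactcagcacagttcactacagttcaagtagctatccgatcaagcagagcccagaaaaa
chr10:96103732-96103867_F: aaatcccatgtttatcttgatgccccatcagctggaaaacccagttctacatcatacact
chr4:3752496-3752901_R: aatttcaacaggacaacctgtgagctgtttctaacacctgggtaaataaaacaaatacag

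The NEAT2 probe (minus strand) was at -1.72, -1.46 and -0.70 with cordycepin and 1.31, 1.13 and 2.00 without, a 6.82-fold drop, and both other probes of the locus also fell. The chromosome 2 probe (minus strand) was at -4.39, -3.99 and -4.19 against -1.42, -1.65 and -1.24, a 6.74-fold drop, but only 3 of the other 11 probes of that locus were called lower. The chromosome 12 probe (plus strand) was 5.84-fold lower, as were 8 of 11 others. Drops at these loci were thus shared by all, few and most of their probes. The chromosome 1 probe (minus strand) was at 0.58, 0.21 and -0.12 with cordycepin and -3.87, -4.92 and -4.39 without, a 24.6-fold rise (adjusted p 5.01e-05), and its 2 other probes rose by 4.47 and 4.60. It lay 11723 bases downstream of a probe for Sertad4 on the same strand. The chromosome 10 probe (plus strand) was 23.1-fold higher and lay 18449 bases downstream of Btg1, and the chromosome 4 probe (minus strand) was 20.3-fold higher and lay 8950 bases downstream of Rps20.

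Promoter sequence could be looked at for part of the genes. The RefSeq promoter table held 395 of the 505 protein-coding genes called higher and 267 of the 339 called lower, under 80% of either set, so a comparison of motif shares between them is void and is not given. Among the genes named above that fell and have a promoter in the table, 4 hold a CRE or a CArG box within 250 bases upstream of the start. The number of such genes was not counted, so the 4 cannot be set against the shares of all promoters given next. The CRE, TGACGTCA, is the site of CREB and ATF factors and occurs in 1.62% of the 27025 promoters of the table over that length. The CArG box, 10 bases from CC to GG with only A and T between them, is the site of SRF and occurs in 1.40%. Both were searched on both strands, and each reads the same in form on either strand. The 4 sequences are shown 5′ to 3′ in the direction of the gene with these motifs in capitals, from RefSeq on GRCm38.p6: Dusp5, chr19:53528895-53529144, plus strand, with 2 adjoining CArG boxes; Zfp36, chr7:28379229-28379478, minus strand, with 1 CArG box; Btg2, chr1:134079156-134079405, minus strand, with 1 CRE; and Plk2, chr13:110394794-110395043, plus strand, with 1 CRE.
Dusp5: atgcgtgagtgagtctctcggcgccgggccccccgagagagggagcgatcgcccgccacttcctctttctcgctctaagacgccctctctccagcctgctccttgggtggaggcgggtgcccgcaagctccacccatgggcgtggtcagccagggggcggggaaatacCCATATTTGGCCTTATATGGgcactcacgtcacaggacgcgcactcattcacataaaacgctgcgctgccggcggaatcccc
Zfp36: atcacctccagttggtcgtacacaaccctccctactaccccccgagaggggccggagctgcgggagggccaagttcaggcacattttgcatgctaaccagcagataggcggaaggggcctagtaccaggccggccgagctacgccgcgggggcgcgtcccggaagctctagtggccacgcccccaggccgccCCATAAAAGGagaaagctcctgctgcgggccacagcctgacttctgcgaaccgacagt
Btg2: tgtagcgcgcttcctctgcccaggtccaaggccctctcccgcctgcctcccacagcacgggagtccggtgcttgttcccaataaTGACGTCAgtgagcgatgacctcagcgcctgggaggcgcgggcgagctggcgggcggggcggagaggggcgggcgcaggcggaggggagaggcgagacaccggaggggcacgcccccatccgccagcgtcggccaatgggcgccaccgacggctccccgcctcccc
Plk2: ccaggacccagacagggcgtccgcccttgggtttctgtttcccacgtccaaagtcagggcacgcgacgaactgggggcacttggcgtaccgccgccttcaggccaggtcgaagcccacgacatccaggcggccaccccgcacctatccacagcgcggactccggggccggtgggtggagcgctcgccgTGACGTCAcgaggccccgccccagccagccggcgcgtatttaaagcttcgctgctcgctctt

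The first CArG box of Dusp5 began 82 bases upstream of the start and the second 72 bases upstream. That of Zfp36 began 58 bases upstream. The CRE began 166 bases upstream in Btg2 and 62 bases in Plk2. Genes that were not called held the same letters. The ribosomal protein Rpl10a and the actin Actg1 have a CArG box, and both differed by 0.22 (limma adjusted p 0.286 and 0.386). The splicing factor Tra2a and the phosphatase Ptpn11 have a CRE and differed by 0.07 and 0.10 (limma adjusted p 0.772 and 0.675). The probes of Actg1 and Ptpn11 are placed on another chromosome than the gene, so copies elsewhere in the genome may contribute to them. Matches thus occurred among drops and among genes not called, and their shares were not compared. A match is a description of letters and not of binding.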

How the data were processed

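RNA of 8 samples was hybridised in 1 colour to Agilent mouse 60K arrays. The deposited files hold intensity per spot, and per the file headers the authors used Feature Extraction 10.7.3.1 with a fitted spatial background, no local background subtraction, and a multiplicative trend correction. Folds of dim probes depend on this, and normexp correction with the local background was the alternative. The 8 arrays share 1 slide and 1 scan. From the processed signal, log2 values were taken, the 75th percentile of the array was subtracted, outliers and control spots were dropped, and replicate spots averaged. Probes well above background on all arrays of at least 1 group were fitted with limma 3.58.1 in R 4.3.3 (group means over 8 arrays, Benjamini-Hochberg adjustment over 30863 probes, adjusted p under 0.05 and a log2 difference of at least 1). The fit was tested on simulated data. Probes were matched to RefSeq genes by accession (18511) or name (1105), and the brightest tested probe stood for a gene. Probe positions are those of the files (mm9), and where they lie within exons is not analysed here.

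The groups, lists and named genes were chosen with earlier results of these data known. Named genes were the 10 largest rises and drops measured on all 6 arrays, up to 3 called members per list and direction, the 5 largest bounds each way, the reference genes and the 2 brightest members of lists without a call. Of these 114 genes those that add nothing to their list are not printed, and a few others are not reported here. Counts called higher and lower in the lists not described follow, beside 4.74% and 2.68% of all genes. Control of Pol II had 0 and 2 of 41, including Cdk12 (2.30-fold lower). Proteasome subunits had 1 and 0 of 37 and BCL2 family genes 0 and 1 of 24. Interleukins had 2 and 0 of 12, chemokines 1 and 1 of 16, and collagens 1 and 0 of 31. Hox genes had 1 and 0 of 23, orphan receptors 3 and 0 of 29, and keratins 1 and 0 of 17. In each of these lists, 0 of the members measured on all 6 arrays were called higher. The rises thus came from genes not above background on all 6 arrays, where the filter can build in a rise.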

Additional observations from a re-analysis of the deposited data

How the results depend on the processing

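The counts called higher and lower were 2356 and 886 probes and 719 and 406 genes, and 72.7% of probe calls were higher. With centring on the spike-in probes 431 probes and 199 genes were lower and the share was 79.4%, and with centring on the median of all probes these were 1780, 801 and 51.1%. Quantile normalisation gave a share of 60.3%, and no filter on dim probes 76.1%. After normexp background correction the calls were 919 probes up and 402 down (69.6%), and 301 genes up and 268 down. With signal above background required on all 6 arrays, 1140 probes and 368 genes were higher (62.0%). With no minimum fold, 3704 probes were higher and 2271 lower (62.0%), and 1252 genes higher and 1187 lower. Leaving out 1 array gave 2164 to 2394 probes higher, 814 to 937 lower, a share of 71.8% to 74.4%, 659 to 742 genes higher and 392 to 436 lower. The cause of these moves was not tested.

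The share called higher among genes with an upstream neighbour within 20 kb (10.6%), tried after seeing the data, was 8.19% with spike-in centring, 9% with median centring, 5.46% after normexp and 6.42% with all 6 arrays above background, and 9.91% to 11% with 1 array left out.

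Of the 114 named genes, 18 lost their call with spike-in centring, 6 with median centring, 13 after normexp, 5 with the median over the probes of a gene, 1 after quantile normalisation and up to 4 with 1 array left out. The 114 include reference genes and members of lists without a call, which had no call to lose. The lost calls are thus a larger share of the called genes than of the 114. No named gene turned direction while called. Replicate numbers did not pair the arrays (correlations of same-numbered deviations -0.000522, -0.175 and 0.144). With the replicate block 709 genes were called higher and 408 lower, and no named gene lost its call. Signal over background limits the dim genes, for which drops are bounds only.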
